A study of Rattus norvegicus with 4 samples.

Results

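TBK1 and the proteins it works with were followed at the mRNA level in a rat insulinoma line, INS-1 832/13, that secretes insulin in response to glucose. The genes were chosen by name for their place in the signalling route of the kinase. They are the kinase gene Tbk1, its homolog Ikbke, the adaptor genes Tank, Azi2 and Tbkbp1, the signalling genes Traf3 and Mavs upstream of the kinase, and Irf3, which encodes a transcription factor that the kinase phosphorylates. Of these 8 genes, 7 have a row among the 15172 genes of the deposited table, and all 7 passed the filter on low counts. Ikbke has no row and was not analysed here, so no value for the homolog and no change of it after Tbk1 silencing can be given. The smallest count of any gene with a row, summed over all libraries, was 10. Why Ikbke has no row is not stated and was not tested.

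Cells of both groups were INS-1 832/13 cells transfected for 36 h, either with a non-targeting siRNA (siScramble, 2 samples) or with a pool of siRNAs against TBK1 (siTbk1, 2 samples). Replicates are numbered 2 and 3 for both treatments. No label says whether they are separate cultures, so p-values measure the spread between these samples, which may be technical. All samples come from 1 established line, and untransfected cells were not analysed here.

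TBK1 and IKKε are the non-canonical IκB kinases. In innate immunity, cytosolic sensors of foreign nucleic acid signal through platforms such as MAVS on mitochondria or STING in the endoplasmic reticulum, TRAF3 and the adaptors TANK, NAP1 (encoded by Azi2) and SINTBAD (encoded by Tbkbp1) hold the kinases in place, and the activated kinase phosphorylates IRF3, which then enters the nucleus and drives interferon genes. TBK1 also phosphorylates autophagy receptors such as optineurin. In β-cells, TBK1 has been studied in the control of replication.

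The total estimated count per library lay between 38428926 and 47759013, so that 3 counts correspond to between 0.0625 and 0.0795 CPM (read counts scaled to library size, here with TMM factors between 0.982 and 1.02). The β-cell label held for most of its markers, as 17 of 18 listed genes have a row and 16 were tested, and their summed level was between 21100 and 22000 CPM in siScramble-treated and between 16700 and 18400 CPM in siTbk1-treated cells. Most of that difference came from Ins1, which lay between 10384 and 11092 CPM in siScramble-treated and between 6244 and 7520 CPM in siTbk1-treated cells. Of the tested β-cell markers, 4 were higher (Iapp, Pcsk1, Nkx6-1 and Slc30a8) and 7 lower, among them the transcription factor gene Mafa (log2 fold change −1.72). Ucn3, a marker of mature β-cells, was between 0 and 0.132 CPM. Summed immune markers (3 of 6 with a row) were between 0.371 and 0.468 CPM in all 4 libraries. Summed acinar and ductal markers (3 of 9) were between 35.2 and 36.4 CPM. Other islet markers (3 of 8) summed to between 1320 and 1390 CPM in siScramble-treated and between 818 and 880 CPM in siTbk1-treated cells, and endothelial and fibroblast markers (2 of 8) to between 8.60 and 9.34 CPM and between 2.81 and 3.31 CPM. Most of these sums came from Gcg, which encodes glucagon and lay between 1313 and 1389 CPM in siScramble-treated and between 815 and 878 CPM in siTbk1-treated cells, and from Kdr, an endothelial receptor gene, which lay between 8.47 and 9.32 CPM and between 2.76 and 3.23 CPM. Whether these markers bear on the changes below was not tested, and fewer cells expressing a gene cannot be told apart from less RNA per cell.

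As a sequence reference for the partners whose change is described below, 250 bases upstream of an annotated transcript start are shown for Irf3 and Tbkbp1, which fell in siTbk1-treated cells, and for Azi2, which rose. The sequences are those of RefSeq on the GRCr8 build, 5′ to 3′ on the strand of the gene. The Irf3 window is chr1:104616358-104616607 on the plus strand, the Tbkbp1 window is chr10:82630773-82631022 on the minus strand, and the Azi2 window is chr8:126651018-126651267 on the plus strand. Capitals mark matches on either strand to the GC box GGGCGG or to a 10-base form of the NF-κB site.
Irf3: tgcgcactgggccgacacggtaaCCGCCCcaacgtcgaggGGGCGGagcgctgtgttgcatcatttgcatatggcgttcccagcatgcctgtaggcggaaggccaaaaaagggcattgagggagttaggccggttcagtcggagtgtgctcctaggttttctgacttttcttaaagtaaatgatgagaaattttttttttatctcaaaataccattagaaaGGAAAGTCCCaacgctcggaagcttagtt
Tbkbp1: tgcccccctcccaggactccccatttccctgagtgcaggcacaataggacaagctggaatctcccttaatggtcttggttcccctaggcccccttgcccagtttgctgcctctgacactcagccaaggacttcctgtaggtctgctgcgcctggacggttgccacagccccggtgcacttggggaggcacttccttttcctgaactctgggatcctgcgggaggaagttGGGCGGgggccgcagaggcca
Azi2: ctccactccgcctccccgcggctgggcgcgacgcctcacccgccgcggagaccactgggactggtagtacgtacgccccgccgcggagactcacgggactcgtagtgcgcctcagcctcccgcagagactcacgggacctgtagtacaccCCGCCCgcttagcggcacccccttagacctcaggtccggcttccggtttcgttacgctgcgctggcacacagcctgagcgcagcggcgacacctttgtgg

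Windows were found for 7 of the 8 genes, with a pair of alternative starts for Tank, and 5 letter patterns were searched on both strands. The GC box occurred in 7 of the 8 windows, against 30.5% of all 33469 promoter windows of that length. The 10-base NF-κB form occurred in 2 of the 8 windows, those of Irf3 and Traf3, against 1.30% of all windows. The core of the interferon-stimulated response element occurred in 0 of the 8 windows and in 3.41% of all windows. The ETS site CCGGAAGT and the E-box CACGTG were each found in 1 of the 8 windows, that of Tbk1, against 3.10% and 5.59% of all windows. These are matches of letters and no evidence of binding.

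Silencing was first examined on Tbk1 itself, which checks the labels. The gene is listed on chromosome 7 from 63655247 to 63687979 on the minus strand, on the rn6 build that the submitters' processing notes name. It had 53.7 CPM in siScramble replicate 2, 52.5 CPM in siScramble replicate 3, 11.8 CPM in siTbk1 replicate 2 and 13.3 CPM in siTbk1 replicate 3. Both siTbk1 libraries were far below both control libraries, and the control libraries were close to each other. The level was 53.1 ± 0.876 CPM (SD, n = 2) in siScramble-treated and 12.6 ± 1.1 CPM (SD, n = 2) in siTbk1-treated cells. In log2 terms the fold change was −2.08 with a standard error of 0.076, which leaves 23.6% of the control level with a 95% interval from 21.1% to 26.5%. Its adjusted p-value was 3.7e-08, and its unadjusted p-value was the smallest of the 13953 genes tested. Unless another tool is named, every adjusted p-value given here is from the quasi-likelihood test in edgeR, corrected over all of these genes by the Benjamini-Hochberg method. The reads of Tbk1 left in the siTbk1 libraries numbered 557 in replicate 2 and 503 in replicate 3. The use of strand in counting is not given, so reads of Tbk1 and of a feature on the other strand in shared sequence cannot be told apart.

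Neither neighbour of Tbk1 was called lower. Xpot, a tRNA export gene, has its nearer end 2074 bp beyond Tbk1. Its log2 fold change was 0.12 (95% interval −0.0056 to 0.24, adjusted p = 0.105), and 0.065 with gene span correction. Rassf3, 76756 bp on the other side, had 98.1 and 103 CPM in siScramble and 129 and 128 CPM in siTbk1 replicates 2 and 3, so that it was higher (log2 fold change 0.35, adjusted p = 0.00023). An RNA feature on the plus strand, RF00017, is listed from 62174485 to 71615404, a span that includes Tbk1 and reaches far beyond it on both sides. Its reads can therefore not be placed at Tbk1. RF00017 was lower (log2 fold change −1.07, adjusted p = 0.047). It had between 10 and 32 counts per library, with split reads. RF00017 was not called with limma-voom (adjusted p = 0.0572) and was at −0.63 without siScramble replicate 3. The profile over the 4 libraries most like that of Tbk1 among 9130 genes of at least 10 CPM was that of Hmgcs1, an enzyme gene of cholesterol synthesis, at a distance of 0.521 between centred log2 values. Lrrc73 (0.719), Rps2 (0.817, with split reads), LOC108348172 (0.873) and Prss53 (0.900) followed. Their log2 fold changes were between −1.54 for Hmgcs1 and −1.17 for Prss53, smaller in size than that of Tbk1.

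**Figure D1:**
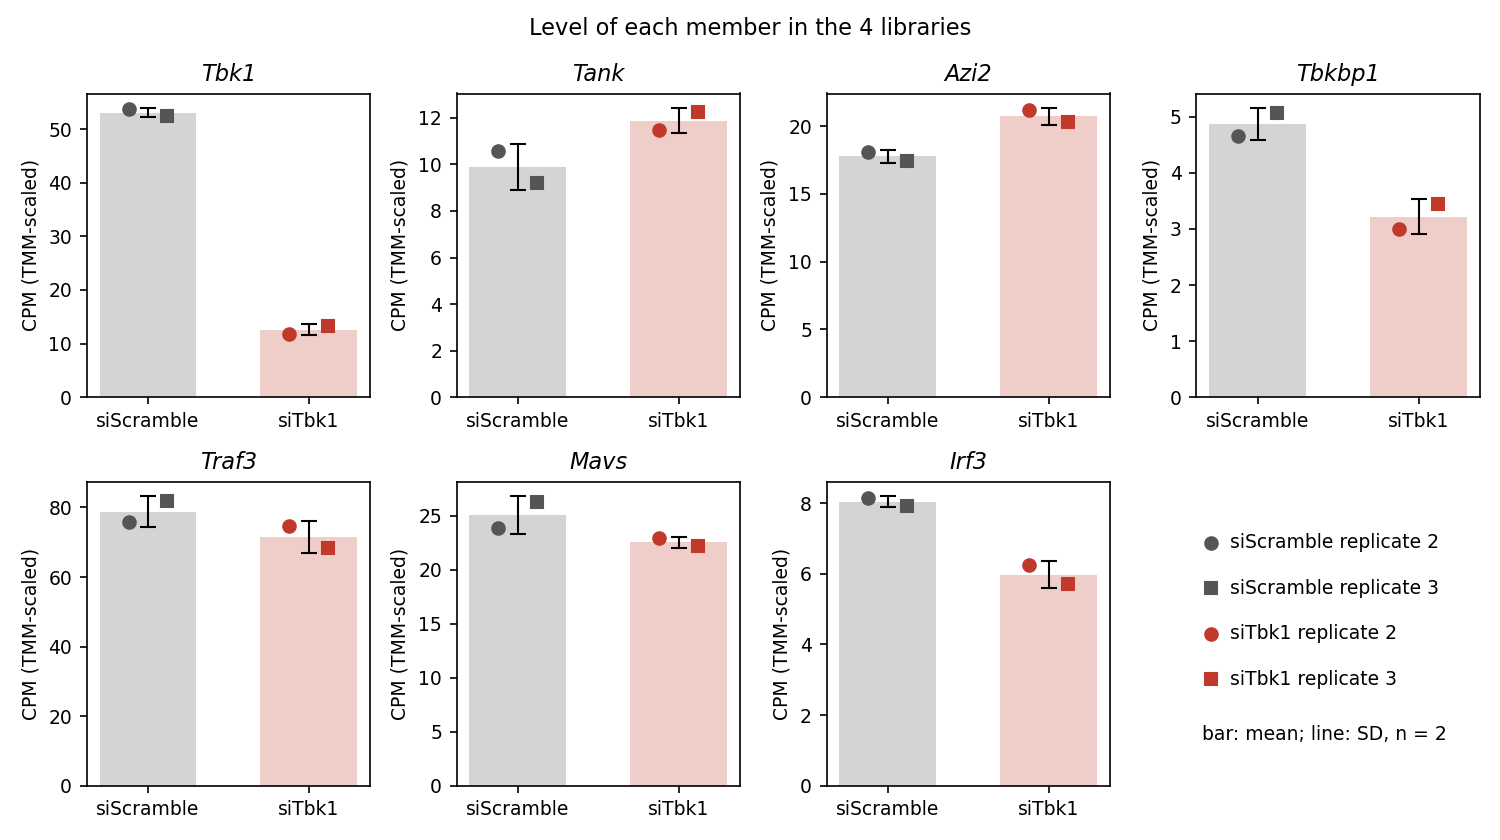
Level of each gene in CPM (TMM-scaled, axes from 0) in the 2 siScramble and 2 siTbk1 libraries, with circles for replicate 2, squares for replicate 3, bars for the mean and lines for the SD. Tbk1 drops from 53.1 to 12.6 CPM, Tbkbp1 and Irf3 are lower and Tank and Azi2 higher in both siTbk1 libraries, and Traf3 and Mavs lie close in both groups.

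Among all 7 genes, 2 were higher and 3 were lower in siTbk1-treated cells at an adjusted p-value under 0.05, where 24.4% of all tested genes were higher and 24.8% were lower at the same limit. With a fold change of at least 1.5 asked for as well, 0 of the 7 were higher and 2 were lower, Tbk1 and Tbkbp1, against 4.81% and 6.18% of all tested genes. The siTbk1 libraries did not overlap the control libraries for any of the 7 genes, with 2 higher and 5 lower, but 38.7% of all tested genes were also higher in both siTbk1 libraries and 37.9% were lower in both. Of the 3 lower genes, Tbk1 is the target of the siRNA. The median log2 fold change of the 6 partners was −0.14, against 0.0071 for all tested genes. With 2 samples against 2, an exact permutation test of a single gene cannot give a two-sided p-value below 0.333, so that the adjusted p-values rest on the spread estimated across all genes together (biological coefficient of variation 0.0482).

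**Figure D2:**
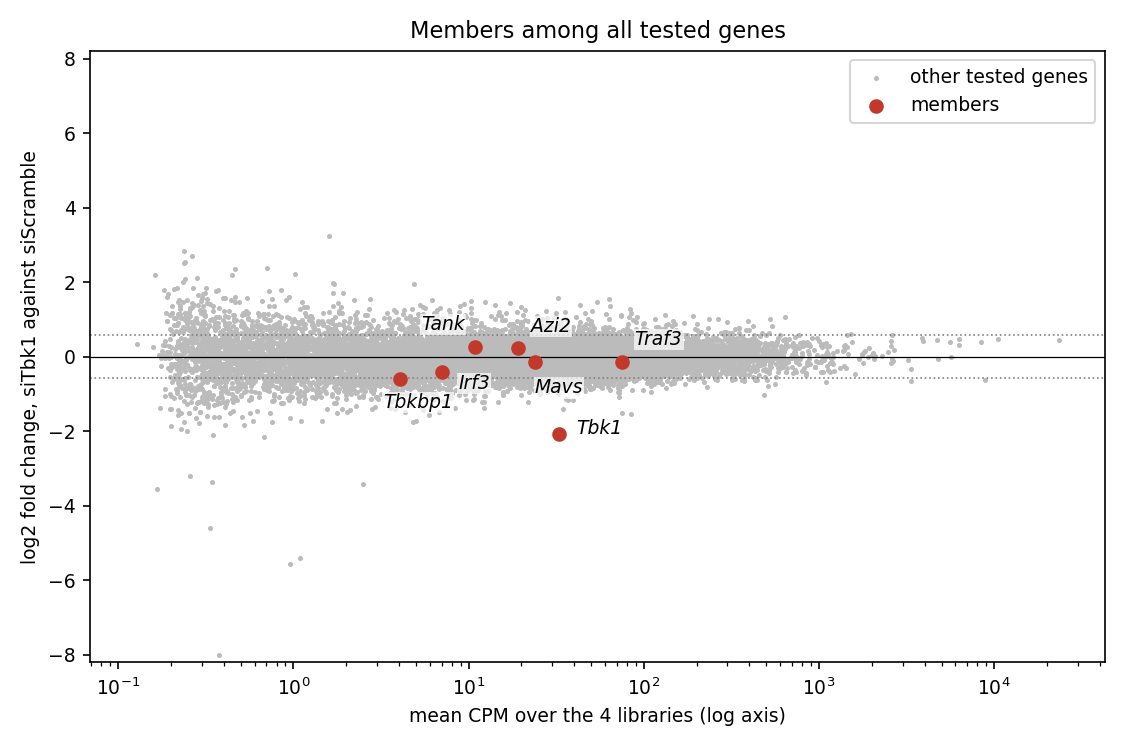
Log2 fold change of siTbk1-treated against siScramble-treated cells plotted over the mean CPM of the 4 libraries (log axis) for the 13953 tested genes, with the 7 genes in red and dotted lines at a 1.5-fold change. Tbk1 stands at −2.08, away from genes of its level, while the 6 partners lie inside the cloud, with Tbkbp1 at −0.60 just past the lower line.

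The 3 adaptors, which bind the kinase through related coiled-coil regions, did not move together. Tbkbp1, the SINTBAD adaptor gene on chromosome 10 from 85071064 to 85084851, was lower in siTbk1-treated cells, at 66.0% of the control level with a 95% interval from 53.2% to 81.9%. It had 4.66 and 5.07 CPM in siScramble replicates 2 and 3, and 3.0 and 3.44 CPM in siTbk1 replicates 2 and 3. The groups did not overlap, and the gap between them was wider than the spread within either. The log2 fold change of −0.60 had a standard error of 0.14 (adjusted p = 0.0042). Tbkbp1 had the fewest reads of the 7 genes, between 130 and 224 per library, and the widest interval. A test of whether the decrease exceeded 1.5-fold did not pass (adjusted p = 1, edgeR's glmTreat).

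Tank and Azi2 had higher levels instead. Azi2, the NAP1 adaptor gene on chromosome 8 from 126411829 to 126434580, had 18.1 and 17.4 CPM in siScramble replicates 2 and 3, and 21.2 and 20.3 CPM in siTbk1 replicates 2 and 3. Libraries of one treatment were within 1 CPM of each other, and both siTbk1 libraries were above both controls. The log2 fold change of 0.22 had a standard error of 0.076 (adjusted p = 0.029), an increase of 16.7%. Tank, on chromosome 3 from 47439076 to 47515701, encodes the adaptor after which the kinase was named. It had 10.6 and 9.19 CPM in siScramble replicates 2 and 3, and 11.5 and 12.3 CPM in siTbk1 replicates 2 and 3. The lower siTbk1 library was above the higher control library, though by less than the difference between the control libraries. Its log2 fold change of 0.26 (standard error 0.10) had an adjusted p-value of 0.0491, just under the threshold.

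Both increases depended on the processing. When a replicate block was added, the adjusted p-values were 0.0567 for Tank and 0.0607 for Azi2, and with DESeq2 they were 0.153 and 0.109, so that neither was called. Over the alternatives that were run, 14 of 17 left Tank and 8 of 17 left Azi2 short of the threshold, while the direction stayed upward in all of them. The value of Tank moved by over 1.5 times with a correction for gene span (0.16) and without siScramble replicate 3 (0.17, adjusted p = 0.314). Leaving out siScramble replicate 3, siTbk1 replicate 2 or siTbk1 replicate 3 each ended the call of both genes, with adjusted p-values between 0.0576 and 0.314 for Tank and between 0.0549 and 0.177 for Azi2. The intervals of the log2 fold change, from 0.041 to 0.48 for Tank and from 0.057 to 0.39 for Azi2, do not reach the interval of Tbkbp1, from −0.91 to −0.29. The difference between genes was not tested. The intervals of Tank and Azi2 overlap each other almost entirely.

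**Figure D3:**
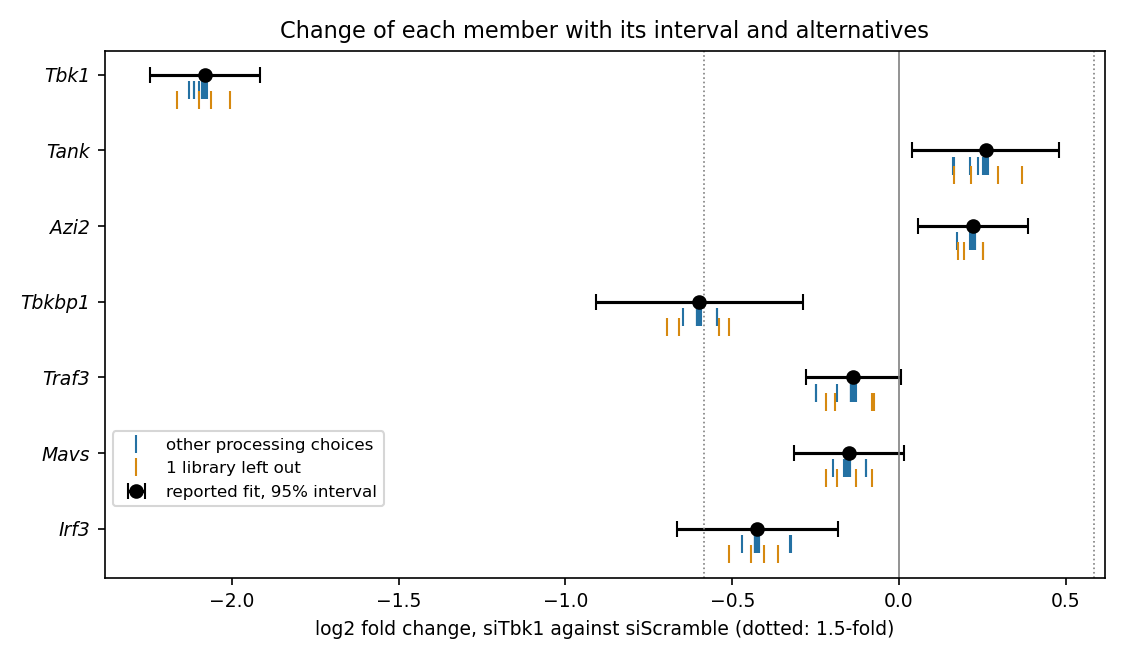
Log2 fold change of each gene (siTbk1 against siScramble) as a point with its 95% interval, with blue ticks for other processing choices, orange ticks for fits without 1 library and dotted lines at a 1.5-fold change. The ticks of Tbk1 lie between −2.16 and −2.01, those of Tbkbp1 and Irf3 stay below 0, and the intervals of Traf3 and Mavs include 0.

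Downstream of the kinase, Irf3 was also lower. The gene lies on chromosome 1 from 100992405 to 100997199 and had 8.14 and 7.93 CPM in siScramble replicates 2 and 3. In siTbk1 replicates 2 and 3 it had 6.25 and 5.70 CPM, so that both were below both controls. The log2 fold change of −0.42 had a standard error of 0.11 (adjusted p = 0.0074), which corresponds to 74.5% of the control level with a 95% interval from 63.0% to 88.1%. The counts were between 215 and 391 per library. IRF3 is controlled mainly by phosphorylation, which RNA sequencing does not measure. Bcl2l12 is listed on the opposite strand and overlaps the start of Irf3, with between 9 and 18 counts per library, far fewer than Irf3 (log2 fold change 0.92, adjusted p = 0.115).

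Of the genes upstream of the kinase, neither passed the threshold. Traf3, a ubiquitin ligase gene on chromosome 6 from 135610743 to 135718565, had 75.7 and 81.9 CPM in siScramble and 74.8 and 68.3 CPM in siTbk1 replicates 2 and 3. The highest siTbk1 library was within 1 CPM of the lowest control library. The log2 fold change was −0.14 with a 95% interval from −0.28 to 0.0048 (adjusted p = 0.101). The Traf3 counts were not whole numbers, as arise when a read is divided between features. Mavs, on chromosome 3 from 123776181 to 123790568, had 23.9 and 26.3 CPM in siScramble and 22.9 and 22.2 CPM in siTbk1 replicates 2 and 3, with a log2 fold change of −0.15 and a 95% interval from −0.32 to 0.014 (adjusted p = 0.12). The lower bounds correspond to 82.4% of the control level for Traf3 and 80.4% for Mavs, and the upper bounds lie just above 100%, which does not show that the levels were the same. For Traf3, the longest of the 7 genes with a span of 107822 bp, a correction for gene span moved the log2 fold change to −0.25 (adjusted p = 0.0077). Traf3 also passed with scaling to library size alone (−0.19, adjusted p = 0.038), without siScramble replicate 2 (−0.19) and without siTbk1 replicate 2 (−0.22), while without siTbk1 replicate 3 or siScramble replicate 3 it did not.

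The levels above are compared between treatments for 1 gene at a time. Transcript lengths were not used here, so the genes are not ranked by level against each other.

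The wider pathway was followed with 6 lists of 150 genes, of which 128 have a row and 125 were tested. Of these, 36 (28.8%) were higher and 33 (26.4%) were lower past the same limit on the adjusted p-value, against 24.4% and 24.8% of all tested genes, and 6 were higher and 2 lower with a fold change of at least 1.5 as well (4 lower without siTbk1 replicate 2), where 4.81% and 6.18% of all tested genes were past both limits. Their median log2 fold change was −0.0075.

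Of 14 tested sensors and receptors, 3 were higher and 3 lower (21.4% each, against 24.4% and 24.8% of all tested genes). The list median was 0.054 on the log2 scale. The table lists STING, the adaptor through which cytosolic DNA reaches TBK1, as Tmem173. It had 18.6 and 18.0 CPM in siScramble and 27.2 and 26.6 CPM in siTbk1 replicates 2 and 3. Libraries of one treatment differed by less than 1 CPM, and the log2 fold change of 0.56 had a standard error of 0.072 (adjusted p = 7.7e-05). Trex1, which encodes an exonuclease that degrades cytosolic DNA, had 4.71 and 4.90 CPM in siScramble and 2.47 and 2.49 CPM in siTbk1 replicates 2 and 3, a log2 fold change of −0.95 (standard error 0.14, adjusted p = 0.00020). The helicase gene Ddx3x was higher (log2 fold change 0.39). The RNA sensor genes that signal through MAVS had log2 fold changes of 0.27 for Ddx58 (RIG-I, adjusted p = 0.041) and 0.25 for Ifih1 (MDA5, adjusted p = 0.136). Ddx58 was short of the threshold in 8 of 17 alternatives, among them those without siScramble replicate 3 (0.25) and without siTbk1 replicate 2 (0.15). Ifih1 was at 0.11 without siScramble replicate 3 and 0.15 without siTbk1 replicate 2, and passed at 0.43 without siScramble replicate 2 (adjusted p = 0.0245). Both genes are named here for their place upstream of Mavs.

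The canonical IκB kinase genes, which are the closest relatives of Tbk1 with a row in the table, differed from each other. Chuk (IKKα) had 131 and 123 CPM in siScramble and 178 and 190 CPM in siTbk1 replicates 2 and 3, a log2 fold change of 0.53 ± 0.058 (SE, adjusted p = 2.5e-05). Both siTbk1 libraries were above both controls by more than the spread within a treatment. Ikbkb (IKKβ) had 42.0 and 42.3 CPM in siScramble and 39.9 and 37.9 CPM in siTbk1 replicates 2 and 3, with a log2 fold change of −0.12 (95% interval −0.25 to 0.021, adjusted p = 0.146). Ikbkb passed with gene span correction (−0.19, adjusted p = 0.0231) and with library size alone (−0.16, adjusted p = 0.0481). Ikbkg, the regulatory subunit NEMO, had a log2 fold change of −0.23 (adjusted p = 0.0492) and was short of the threshold in 10 of 17 alternatives, among them those without siScramble replicate 3 (−0.17), siTbk1 replicate 2 (−0.24) or siTbk1 replicate 3 (−0.22). In their list of 20 tested IKK, NF-κB and IRF genes, 6 were higher and 3 lower, with a median of −0.079. These are 30% and 15%, against 24.4% and 24.8% of all tested genes. Stat6, a transcription factor gene, was higher (log2 fold change 0.52), and Irf7, the closest relative of Irf3, had a log2 fold change of −0.12 (95% interval −0.35 to 0.097, adjusted p = 0.335), and −0.021 with gene span correction.

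Among 31 tested ubiquitin ligases, deubiquitinases and scaffolds, 10 were higher and 8 lower, with a median of 0.011. These are 32.3% and 25.8%, against 24.4% and 24.8% of all tested genes. Mib2, a ubiquitin ligase gene, had 9.31 and 10.3 CPM in siScramble and 5.46 and 5.03 CPM in siTbk1 replicates 2 and 3 (log2 fold change −0.89, adjusted p = 6.7e-05). The ligase gene Itch was higher (log2 fold change 0.51) and the deubiquitinase gene Otub1 was lower (−0.49). Of the other TRAF genes in this list, Traf2 was lower (log2 fold change −0.27, adjusted p = 0.011) and Traf6 higher (0.19, adjusted p = 0.026), while Traf5 (−0.0075, adjusted p = 0.976) and Traf1 (0.053, adjusted p = 0.899) did not pass. Traf2 was not called without siTbk1 replicate 3 (−0.17, adjusted p = 0.145). Traf6 was short of the threshold in 7 of 17 alternatives, among them those without siScramble replicate 2 (0.15), siTbk1 replicate 2 (0.17) or siTbk1 replicate 3 (0.21).

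Of 16 tested autophagy receptors and partners, 2 were higher and 4 lower, with a median of −0.096. These are 12.5% and 25%, against 24.4% and 24.8% of all tested genes. Tbc1d15, which encodes a GTPase-activating protein for RAB7 in mitophagy, had 104 and 94.2 CPM in siScramble and 162 and 169 CPM in siTbk1 replicates 2 and 3 (log2 fold change 0.74, adjusted p = 4.4e-06). The receptor gene Sqstm1 was lower (log2 fold change −0.36), as was the autophagy kinase gene Ulk1 (−0.36). Optn, the receptor best known as a TBK1 substrate, was higher (log2 fold change 0.28, adjusted p = 0.0060) and was short of the threshold in 3 of 17 alternatives, among them that without siScramble replicate 3 (0.21).

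In the list of 22 metabolic kinases and phosphodiesterases, 6 genes were higher and 10 lower (27.3% and 45.5%, against 24.4% and 24.8% of all tested genes), with a median of −0.035. Pde3b, which encodes the cAMP-hydrolysing phosphodiesterase studied beside TBK1 in these cells, had 201 and 187 CPM in siScramble and 261 and 279 CPM in siTbk1 replicates 2 and 3 (log2 fold change 0.47, standard error 0.057, adjusted p = 5.0e-05). Akt1, a kinase gene of insulin signalling, was lower (log2 fold change −0.47).

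Interferon and IRF3 output genes held 4 of the 6 pathway genes that were higher with a fold change of at least 1.5, a limit that 4.81% of all tested genes passed. Of 22 tested, 9 were higher and 5 lower past the adjusted p-value limit (40.9% and 22.7%, against 24.4% and 24.8% of all tested genes), with a median of 0.20. The list also holds genes of the interferon receptor and its kinases, and the higher genes include Ifnar2 and Jak1 of these. Of 30 listed genes, 24 have a row, and Ifnb1, Ifit1, Ifit2, Ifit3, Ifitm3 and Ccl5 have none. Mx1 and Oasl had too few counts to be tested. Cxcl10, a chemokine gene, had 9.66 and 9.79 CPM in siScramble and 20.9 and 20.8 CPM in siTbk1 replicates 2 and 3 (log2 fold change 1.10, standard error 0.082, adjusted p = 2.1e-06). Gbp2, an interferon-induced GTPase gene, had 4.58 and 4.57 CPM in siScramble and 10.5 and 11.4 CPM in siTbk1 replicates 2 and 3 (log2 fold change 1.25, standard error 0.11, adjusted p = 5.9e-06). For both genes, the libraries of one treatment were close and the treatments were far apart. The antiviral genes Mx2 (log2 fold change 1.03) and Rsad2 (0.65) were higher at low levels, and B2m, the light chain of MHC class I, was higher at 249 CPM in control and 371 CPM in siTbk1-treated cells (means of 2 libraries). Rsad2 was not called with DESeq2 (adjusted p = 0.0773) or without siScramble replicate 3 (0.50, adjusted p = 0.0925). Tyk2, a kinase of the interferon receptor, was lower (log2 fold change −0.48). The other lower genes of this list were Ifi27 (−0.30), Isg20 (−0.31), Bst2 (−0.31) and Lgals3bp (−0.19). Mean levels fell from 178 to 145 CPM for Ifi27 and from 235 to 206 CPM for Lgals3bp. Of this list, 8 tested genes did not pass in either direction. Isg15, a common interferon-stimulated gene, had between 0.505 and 0.574 CPM in all libraries. Its log2 fold change of 0.14 had a wide 95% interval from −0.57 to 0.85 (adjusted p = 0.750), so that a change was not detectable at this depth. Tap1 and Ifi44 did not pass at higher mean levels, 14.5 and 10.3 CPM in siScramble-treated cells. Their log2 fold changes were −0.14 (95% interval −0.38 to 0.0998, adjusted p = 0.319) and 0.081 (−0.12 to 0.29, adjusted p = 0.506). Cd274 (0.27, adjusted p = 0.061) and Psmb9 (0.19, adjusted p = 0.275) also did not pass.

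**Figure D4:**
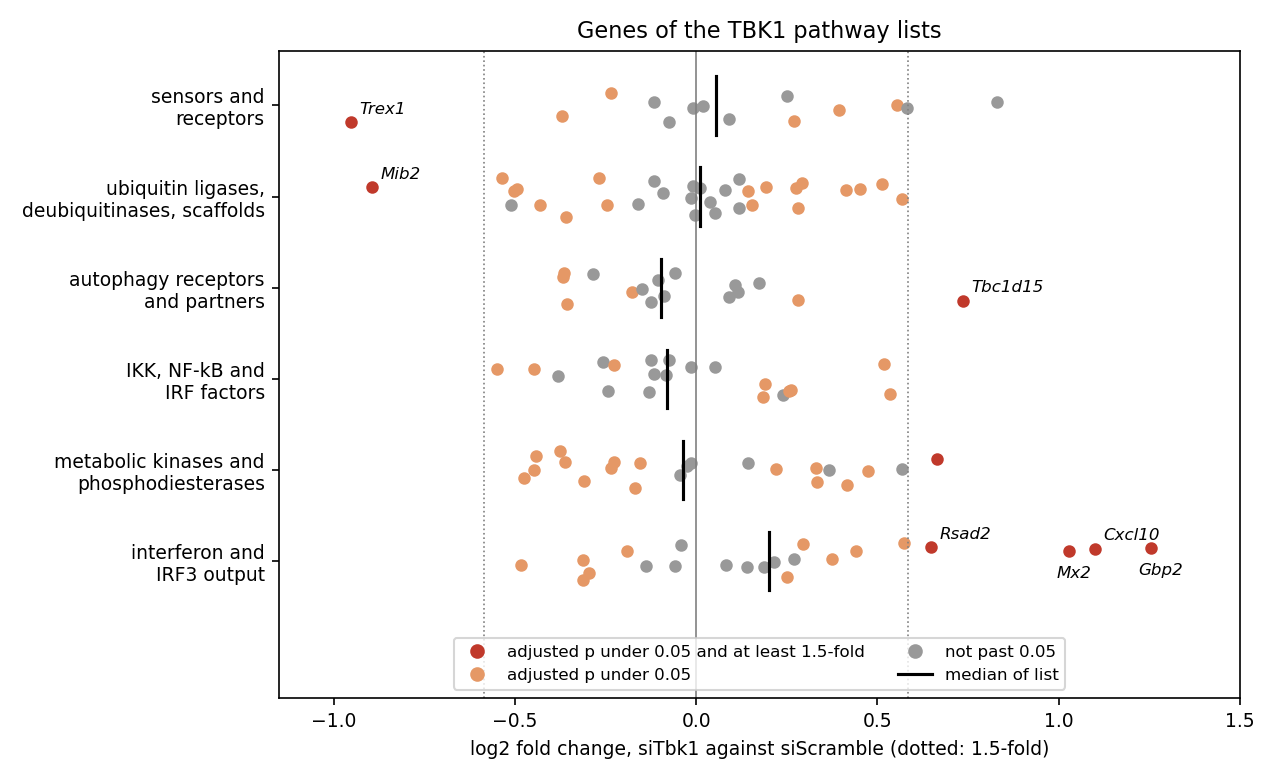
Log2 fold change (siTbk1 against siScramble) of the 125 tested genes in 6 pathway lists, with red for genes past an adjusted p-value of 0.05 and a 1.5-fold change, orange for genes past the p-value only, grey for the rest and a black line at each list median. The medians lie between −0.096 and 0.20, and 4 red genes above the 1.5-fold line belong to the interferon and IRF3 output list.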

How the data were processed

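RNA was profiled in 2 siScramble-treated and 2 siTbk1-treated samples of INS-1 832/13 cells with a stranded, poly(A)-selecting kit. The values that the authors deposited are estimated counts for each gene, not scaled between samples. The submitters' processing notes name STAR 2.6.1d, Partek and the rn6 build, and the counting step and its use of strand are not given in the sources used here. Values were rounded to whole numbers. Genes were kept with filterByExpr at a minimum count of 10 (13953 kept, 1219 removed), scaled with TMM factors and fitted with the quasi-likelihood test of edgeR 4.0.16 (R 4.3.3), with treatment as the only factor. The Benjamini-Hochberg adjustment was made over all genes tested. Intervals come from the F statistic and its degrees of freedom. The named genes are all members, the pathway genes past both limits, the 2 genes of smallest p in each list, genes overlapping a member or next to Tbk1, and the 5 genes most like Tbk1. Some genes that this rule names are not reported here. Other genes named were added for their place in the pathway or as markers, after values were seen. The members and lists were chosen with earlier results of these data known. Alternatives were run with DESeq2 1.42.0, limma 3.58.1 and other settings. Libraries of one treatment differed beyond sampling noise (chi-square per degree of freedom 6.71 for siScramble and 6.66 for siTbk1), so none was treated as a repeat deposit of another, which does not show that they are separate cultures. The fit was first tested on simulated data. Positions are those the table lists. Figures were drawn with matplotlib 3.10.9.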

Additional observations from a re-analysis of the deposited data

How the results depend on the processing

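All alternatives kept the direction of each of the 7 genes. Tbk1 stayed between −2.13 and −2.08 on the log2 scale, and between −2.16 and −2.01 with 1 library left out. Tank lost its call with the replicate block (0.26), the replicate block and gene span correction (0.16), gene span correction (0.16), DESeq2 (0.26), limma-voom (0.26), DESeq2 size factors (0.25), library size alone (0.21), no filter (0.25), thinning each library to the smallest total (0.24), a minimum of 10 counts in each library (0.25) and glmTreat (0.26), and was between 0.17 and 0.37 with 1 library left out. Azi2 lost its call with the replicate block (0.22), the block and gene span correction (0.23), DESeq2 (0.22), library size alone (0.18) and glmTreat (0.22), and was between 0.18 and 0.25 with 1 library left out. Traf3 passed with the block and gene span correction (−0.25), gene span correction (−0.25), library size alone (−0.19) and the crossed replicate block (−0.14), and was between −0.22 and −0.074 with 1 library left out. The cause was not tested.

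The test against a 1.5-fold change (glmTreat) asks for more by construction and left Tbkbp1 (−0.60) and Irf3 (−0.42) short of the threshold, 1 lower gene of the 7, and 2 higher and 0 lower pathway genes. Of all tested genes, it called 163 higher and 101 lower. The count of higher members was 0 with the block, with or without gene span correction, DESeq2, library size alone and glmTreat, 1 with gene span correction, limma-voom, DESeq2 size factors, no filter, at least 10 counts and thinning, and between 0 and 2 with 1 library left out. The lower pathway genes numbered between 3 and 4 with 1 library left out.

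The replicate numbers were not taken to pair the samples, since the labels name no shared source and the deviations of same-numbered samples correlated at −0.081 (Pearson) and −0.22 (Spearman) across genes. Total counts were nonetheless alike by number. They were 47443061 (siScramble) and 47759013 (siTbk1) for replicate 2, and 38811919 and 38428926 for replicate 3. Whether same-numbered samples share a source was not tested. A crossed pairing, chosen after seeing the data, called 3805 genes higher and 3816 lower. Where leaving out 1 library left a single sample in a group, that sample was assumed to vary like the other group. Depth limits the low genes, such as Isg15 with between 20 and 27 counts.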
